A study of Arabidopsis thaliana with 20 samples.

Results

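Gene expression in the Arabidopsis thaliana root tip was compared between older and younger seedlings, using only the libraries labelled as meristematic zone (MZ). The older side held 4 libraries, 2 replicates each from seedlings 6 and 7 days old, and the younger side held 4, 2 replicates each from seedlings 3 and 4 days old. These 8 libraries are part of a series of 20, which also holds 2 MZ libraries of day 5 and 10 libraries labelled elongation zone (EZ). Every library came from ecotype Col-0 carrying PET111:GFP, grown on mesh over 1xMS medium with 1% sucrose after cold treatment of the seeds at 4C for 2 days. Roots were cut and protoplasted, and the cells sorted were those without GFP, a gate meant to leave out columella cells, so each library is a mixture of the remaining cell types of its zone. RNA was amplified with a low-input kit before sequencing. The deposited table listed 33201 genes, of which 19333 had at least 1 FPKM (fragments per kilobase of transcript and per 1000000 mapped) in at least 2 of the 8 libraries and were tested. The labels call replicates biological but do not say how many roots each held, nor whether the MZ and EZ libraries of one age came from the same plants.

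The root meristem is the stretch of dividing cells behind the cap. Cells leave it by elongating and then differentiate, and during the first days after germination division outpaces this exit, so that the meristem grows before it reaches a steady length. Auxin sustains division there, whereas cytokinin promotes the transition to differentiation. The seedling meanwhile moves from seed reserves to its own supply of nutrients, and proteins of the desiccated seed, many of them induced by abscisic acid, are no longer needed.

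The column sums of the 8 libraries lay between 699298 and 833055 FPKM, and 15912 to 17677 genes reached 1 FPKM in each. Depth was not listed. The spacing of low values gave approximate depths, in units of 1000000 fragments, of 4.15, 24.2, 13.6 and 19.8 for the younger libraries and of 5.95, 13.2, 15.1 and 19.4 for the older ones, with 50.8% to 61.8% of those low values within 0.1 of a whole fragment. The mean correlation across genes was 0.911 between replicates of an age, 0.909 between ages of the same side and 0.904 between the sides, so age separated the libraries little more than replication did. Day 6 replicate 2 and day 7 replicate 2, both on the older side, stood apart from the rest, with mean correlations to the other libraries of 0.888 and 0.890. The margin was narrow, as the remaining libraries had 0.9005 to 0.9231. These 2 were not especially alike either, with a correlation of 0.899. The zone labels also need care. The level of PCNA1, whose product clamps DNA polymerase to its template, was 9.42 ± 5.27 FPKM under the MZ label and 39.2 ± 15.8 FPKM under the EZ label (SD, n = 10 each), so genes of dividing cells were lower where the label says meristem. The groups are therefore called here by their labels.

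**Figure D1:**
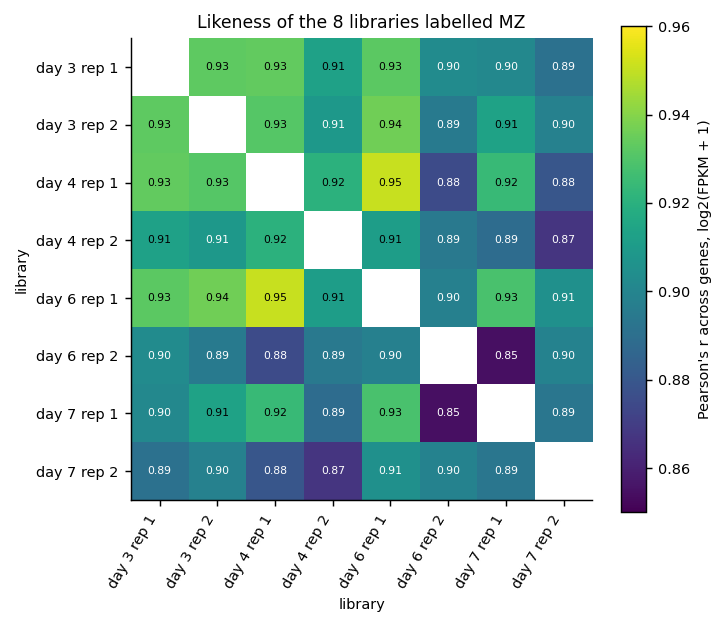
Pearson's r across the 19333 tested genes, on log2(FPKM + 1), between each pair of the 8 libraries labelled MZ; both axes list the libraries and colour gives r. The rows of day 6 replicate 2 and day 7 replicate 2, with mean correlations of 0.888 and 0.890, are darker than most others, and no block separates the older from the younger libraries.

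Few single genes could be told apart between the ages with 4 libraries a side. In limma's moderated test on log2(FPKM + 1), with Benjamini-Hochberg adjustment over the 19333 genes, 1 gene passed an adjusted p of 0.05, which is 0.00517% of those tested. An unadjusted p under 0.05 was reached by 1723 genes (8.91%), 524 of them higher (2.71%) and 1199 lower (6.2%) in the older libraries. The 4 older values lay wholly above or below the 4 younger ones for 960 genes (4.97%), 308 above (1.59%) and 652 below (3.37%). Older values averaged lower for 63.5% of all genes. The excess of lower genes depended on scaling. The median difference over all genes was -0.14 on the log2 scale, and 30.4% of the genes under an unadjusted p of 0.05 were higher; with quantile normalisation the median was 0.01 and this share 55.6%, and with median-of-ratios scaling -0.02 and 52.3%. Differences between lists are therefore also given below relative to the median of all genes. The count of genes passing depended most on day 6: without its 2 libraries 239 genes passed, 17 higher and 222 lower. Without day 4 the count was 4, without day 4 replicate 1 it was 2, without day 4 replicate 2 it was 3, and without both libraries that stood apart it was 0. A fit over all 20 libraries gave each zone and age its own mean, so only the spread between the 2 replicates of an age counted. Spread between the 2 ages of a side, which counts in the main fit, was left out of it. With this replicate spread 35 genes passed, 7 higher and 28 lower.

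The gene that passed was AT2G07684, annotated as an uncharacterized protein. In this order of libraries, day 3 replicates 1 and 2 and then day 4 replicates 1 and 2, which is kept for the younger side throughout, it was at 82.4, 127, 25.2 and 34.6 FPKM, and it was listed at 0 in both day 5 libraries and all 4 older ones. It fell by 5.81 on the log2 scale (SE 0.47, adjusted p = 0.00173). Its transcript is 111 bases long and all of its sequence also occurs in an organelle genome, so nuclear and organelle reads cannot be told apart here. The call was lost with a pseudocount of 5 (adjusted p = 0.0511), with no filter on low values (0.142), without day 7 (0.0956) and without the 2 libraries that stood apart (0.0613).

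**Figure D2:**
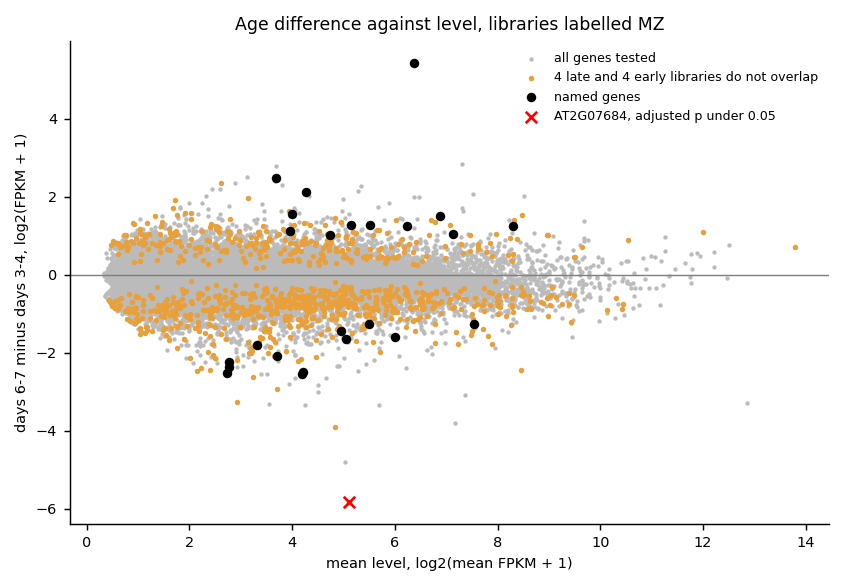
Difference between days 6-7 and days 3-4 in log2(FPKM + 1) against mean level for the 19333 tested genes (grey), with the 960 genes whose older and younger libraries did not overlap (orange), the 24 genes named in the text (black) and AT2G07684 (red cross). The cloud is centred slightly below 0, at a median of -0.14, and AT2G07684, at -5.81, lies below every other point.

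Because no other gene passed, the genes described next are those with the smallest p in each direction among genes averaging at least 10 FPKM on the higher side, with no overlap between the sides: 12 higher and 12 lower in the older libraries. None of these 24 passed the adjusted test, their adjusted p running from 0.242 to 0.431, and their values are a description of genes chosen for this difference. All 24 kept their direction in every alternative run. As their sides did not overlap, only quantile normalisation and median-of-ratios scaling could have turned it.

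Among the 12 that were higher, AGL17, a MADS-box transcription factor gene known for its expression in roots, had the steadiest course. It was at 8.84, 5.95, 5.42 and 8.08 FPKM in the younger libraries, at 12.8 and 14.1 FPKM on day 5, and at 18.03 and 19.9 FPKM on day 6 and 24.9 and 28.8 FPKM on day 7. The day 5 libraries lay between the sides, and both day 7 libraries exceeded both of day 6. The difference was 1.57 ± 0.27 on the log2 scale (SE, adjusted p = 0.249). AGL17 passed only with a different spread, such as the replicate spread of all 20 libraries (adjusted p = 0.0188), or without day 6. PME2, a pectin methylesterase that removes methyl groups from cell wall pectin, was at 55.9, 77.5, 43.9 and 64.6 FPKM on the younger side and at 180, 148, 231 and 132 FPKM on the older one (day 6 and then day 7, replicates 1 and 2, an order kept throughout). Its lowest older library was well above its highest younger one, with a difference of 1.49 ± 0.25 (SE, adjusted p = 0.249).

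The peroxidase superfamily gene AT2G39040 was the most abundant of the 12. It was at 175, 180, 169 and 212 FPKM in the younger libraries and at 351, 383, 502 and 547 FPKM in the older ones, with a difference of 1.25 ± 0.22 (SE, adjusted p = 0.249). GH3.5 encodes an enzyme that joins auxin and other acids to amino acids, which lowers free auxin. It was close to 20 FPKM on the younger side, at 20.08, 20.8, 19.1 and 16.2, and at 31.8, 37.7, 54.6 and 75.5 FPKM on the older one, so that day 7 was above day 6 and the difference was 1.27 ± 0.28 (SE, adjusted p = 0.422). AT1G50050, of the CAP superfamily of secreted cysteine-rich proteins, was at 3.98, 1.53, 3.20 and 1.05 FPKM and then at 12.7, 6.85, 19.9 and 45.7 FPKM, a difference of 2.48 ± 0.52 (SE, adjusted p = 0.362) with a wide spread on the older side.

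The C2H2 zinc finger gene AT5G03510 was at 37.8, 58.1, 42.3 and 37.5 FPKM and then at 89.9, 112, 95.3 and 120 FPKM, with both day 5 libraries, at 41.4 and 44.8 FPKM, still at the younger level. The protein kinase gene AT5G11850 took the opposite course: its day 5 values of 32.04 and 36.3 FPKM lay on either side of the older range of 33.5 to 35.5 FPKM, against 14.4 to 20.01 FPKM on the younger side. AT1G12600, of a nucleotide sugar transporter family, was above its younger range of 3.21 to 9.48 FPKM in every older library, but its older values of 24.1, 38.5, 12.9 and 48.0 FPKM were uneven. IOS1, a receptor kinase gene known from plant immunity, AT3G56790, annotated as like an RNA splicing factor, and AT2G34340, of a family of unknown function, differed by 1.11 ± 0.25, 1.28 ± 0.26 and 1.03 ± 0.23 (SE). The remaining gene, AT2G35742, is an 80-base small nucleolar RNA listed at 0 in 3 younger libraries and at 81.5 FPKM in day 4 replicate 2, against 82.8 to 267 FPKM on the older side. A transcript this short is measured poorly by an FPKM table, and without day 4 replicate 2 its adjusted p was 6.85e-05.

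**Figure D3:**
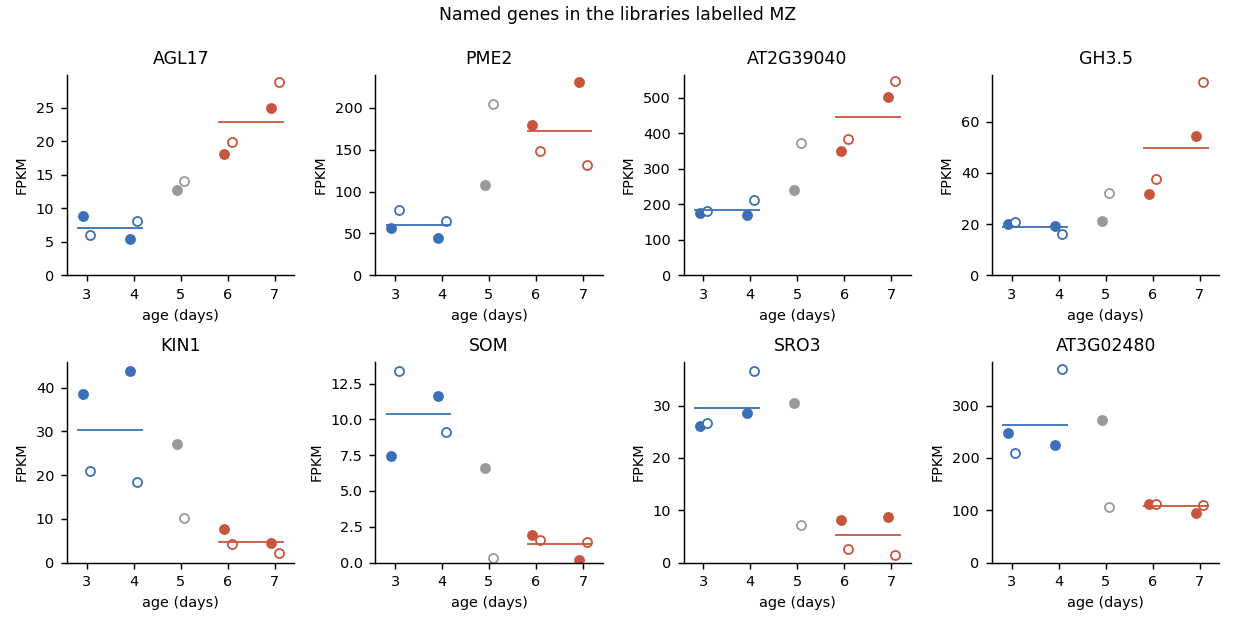
FPKM of 8 named genes in each of the 10 libraries labelled MZ against age in days; filled points are replicate 1, open points replicate 2, blue days 3-4, grey day 5, red days 6-7, and the horizontal lines are means of 4 libraries. The values of AGL17 are 5.42 to 8.84 FPKM on the younger side and 18.03 to 28.8 FPKM on the older one, whereas those of KIN1 are 18.4 to 43.8 FPKM and 2.20 to 7.57 FPKM.

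Of the 12 that were lower in the older libraries, KIN1, a small protein induced by cold and abscisic acid, had the smallest p of all 24. It was at 38.5, 21.0, 43.8 and 18.4 FPKM in the younger libraries, at 27.1 and 10.2 FPKM on day 5, and at 7.57, 4.21, 4.36 and 2.20 FPKM in the older ones. The sides did not overlap, with a difference of -2.48 ± 0.38 (SE, adjusted p = 0.242). Its neighbour KIN2 was at 487, 375, 347 and 483 FPKM and then at 248, 373, 146 and 232 FPKM, so its sides overlapped, with a difference of -0.82 ± 0.29 (SE).

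SOM (SOMNUS), a zinc finger gene that represses germination in seeds, was at 7.45, 13.4, 11.6 and 9.14 FPKM in the younger libraries and at 1.91, 1.59, 0.191 and 1.41 FPKM in the older ones, a difference of -2.37 ± 0.37 (SE, adjusted p = 0.242). Of its day 5 libraries, replicate 1 was near the younger side at 6.57 FPKM and replicate 2 at the older level at 0.337 FPKM. SRO3, of a plant family of proteins with a poly(ADP-ribose) polymerase-like domain that includes stress response regulators, had the same split on day 5, at 30.4 and 7.26 FPKM. It was at 26.1, 26.6, 28.6 and 36.6 FPKM on the younger side and at 8.07, 2.55, 8.69 and 1.39 FPKM on the older one (-2.53 ± 0.44, SE, adjusted p = 0.249).

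Late embryogenesis abundant (LEA) proteins accumulate in drying seeds and protect cells against water loss. Both LEA genes among the 12 were lower in every older library. AT3G02480 was at 248, 210, 225 and 370 FPKM and then at 112, 113, 93.9 and 111 FPKM, a nearly constant older level (-1.25 ± 0.23, SE, adjusted p = 0.270), and AT2G33690 was at 6.55 to 17.9 FPKM and then at 0 to 1.75 FPKM. Of the 59 tested genes whose product names late embryogenesis abundant proteins, 41 were lower in the older libraries and 18 higher. Older values averaged lower for 63.5% of all genes. Membership rests on product words alone, so not every member need accumulate in drying seeds. An unadjusted p under 0.05 was reached by 9 lower and 2 higher members. The sides did not overlap for 15.3% of the 59, 6 lower and 3 higher, against 4.97% of all genes. The median difference of the 59 was -0.23, which is -0.09 relative to all genes. Lower members without overlap included LEA14 at 659 to 1042 FPKM and then 452 to 511 FPKM, LEA7 at 143 to 525 FPKM and then 74.3 to 122 FPKM, and AT2G23120 at 729 to 1085 FPKM and then 242 to 658 FPKM. The 3 higher ones were M10, AT1G17620 and AT5G60530, with differences of 1.03, 0.35 and 1.11. AT5G60530, annotated as related to these proteins, was at 2060, 2877, 2144 and 2853 FPKM and then at 3623, 5670, 3970 and 9614 FPKM.

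MT2A, a metallothionein that binds copper and other metals, was at 50.4, 43.3, 33.5 and 69.1 FPKM in the younger libraries and at 19.1, 17.0, 16.2 and 8.19 FPKM in the older ones (-1.65 ± 0.31, SE, adjusted p = 0.289). G3Pp1, a transporter gene of the glycerol-3-phosphate family, was at 11.2 to 18.9 FPKM and then at 1.73 to 4.59 FPKM. Transport was represented further by 2 genes of the MATE efflux family. AT1G71140 was at 69.2 to 118 FPKM and then at 18.6 to 49.6 FPKM, and AT5G52050 at 36.2 to 48.6 FPKM and then at 11.4 to 26.4 FPKM. The others were AT4G16820, of the alpha/beta-hydrolase superfamily, AT3G10910, of the RING/U-box superfamily, and AT1G09794, of the Cox19 family, known in yeast for mitochondrial copper handling. AT1G09794 was at 77.2, 67.8, 54.0 and 53.3 FPKM and then at 32.2, 26.7, 21.6 and 22.8 FPKM.

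The EZ libraries of the same ages did not enter the choice of these genes, but they may not be separate from the MZ libraries of the same number. Across genes, the difference between replicates 1 and 2 in MZ correlated with that in EZ at 0.32 on day 4 and 0.39 on day 7, against 0.02 on day 3 and 0.05 on day 6. In EZ the ages were compared within a limma fit over the 16 libraries of both zones, which share 1 estimate of spread. There 0 genes passed, and 1231 genes (6.37%) had an unadjusted p under 0.05. This share is not like for like with the 8.91% in MZ, which came from the 8 MZ libraries alone. Of the 12 genes higher in the older MZ libraries, 11 also averaged higher in the older EZ libraries, 7 of them with an unadjusted p under 0.05. Not all of these 7 were higher in every older EZ library, as AGL17 was. AT1G12600 was at 46.05 and 38.83 FPKM in EZ replicate 2 of days 6 and 7. Its replicate 1 values, 9.497 and 8.094 FPKM, lay within the younger EZ range of 7.331 to 10.23 FPKM. The sides of IOS1 and AT1G50050 overlapped in EZ too. IOS1 was at 11.23 FPKM in EZ day 7 replicate 1, and AT1G50050 at 1.67 FPKM in EZ day 6 replicate 1. Their highest younger EZ values were 14.99 and 1.68 FPKM. AT2G34340 did not overlap, at 200.9 and 193 FPKM in replicate 2 and at 88.47 and 88.13 FPKM in replicate 1. The margin in replicate 1 was narrow, as its highest younger EZ value was 85.95 FPKM. Of the 12 lower genes 11 averaged lower in EZ too, 5 of them with an unadjusted p under 0.05. Of these 5 only SOM was lower in every older EZ library, and the sides of KIN1, G3Pp1, AT3G02480 and AT5G52050 overlapped in EZ. AT5G52050 was at 42.65 FPKM in EZ day 7 replicate 1, above its highest younger EZ value of 39.52 FPKM. KIN1 was at 29.41 FPKM in that library, within its younger EZ range of 16.75 to 43.99 FPKM. The direction was shared between zones by 64.3% of all genes and by 79.5% of the 960 genes whose sides did not overlap in MZ. AGL17 went from 3.13, 2.65, 10.7 and 6.48 FPKM in the younger EZ libraries to 21.2, 25.6, 20.5 and 28.1 FPKM in the older ones, a difference of 2.03 ± 0.32 (SE, adjusted p = 0.165). SOM went from 9.71, 8.33, 17.64 and 0.958 FPKM to 0 to 0.579 FPKM in EZ, a difference of -2.78 ± 0.52 (SE). AGL17 and SOM thus stood apart between the ages in both zones.

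Whether the age difference itself varied between zones was tested in one limma fit over the 16 libraries. Of the 19333 genes 0 passed, and 584 (3.02%) had an unadjusted p under 0.05, among them 3 of the 12 higher and 6 of the 12 lower genes. These named genes were chosen for their MZ difference, which also enters this test. Their share can therefore not be set against the 3.02%. The count of genes passing was 1 without EZ day 3 replicate 1 and 1 with the replicate spread of all 20 libraries. MT2A had the smallest p of those lower in MZ relative to EZ: in EZ it was at 33.5, 20.5, 29.5 and 37.1 FPKM and then at 29.7, 37.4, 41.7 and 40.9 FPKM, with overlapping sides, and the difference between zones was -1.97 ± 0.39 (SE, adjusted p = 0.999). GH3.5 was at 38.9, 29.7, 29.3 and 54.3 FPKM and then at 28.4, 44.9, 46.7 and 60.3 FPKM in EZ, with overlapping sides. IAA33, an Aux/IAA family gene, was between 0 and 1.38 FPKM in the younger MZ libraries and at 5.23, 7.62, 1.90 and 1.48 FPKM in the older ones, and its difference was 1.53 ± 0.50 in MZ and -1.03 in EZ (SE). Of the genes more positive in MZ, AT2G35742 had the smallest p (5.44 in MZ and -3.91 in EZ); it was listed at 0 in 6 of the 8 EZ libraries and at 210 and 238 FPKM in day 3 replicate 1 and day 4 replicate 2. PKT4 (0.52 and -0.81) and AT5G35370 (0.72 and -0.71) were the others. AT2G07684, left out of this choice as an unresolved copy, was at -5.81 in MZ and -0.39 in EZ. AT5G66440 (-1.45 and 0.94), AT2G24040 (-0.52 and 0.67) and AT2G22426 (-3.26 and -0.42) were the others more negative in MZ.

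**Figure D4:**
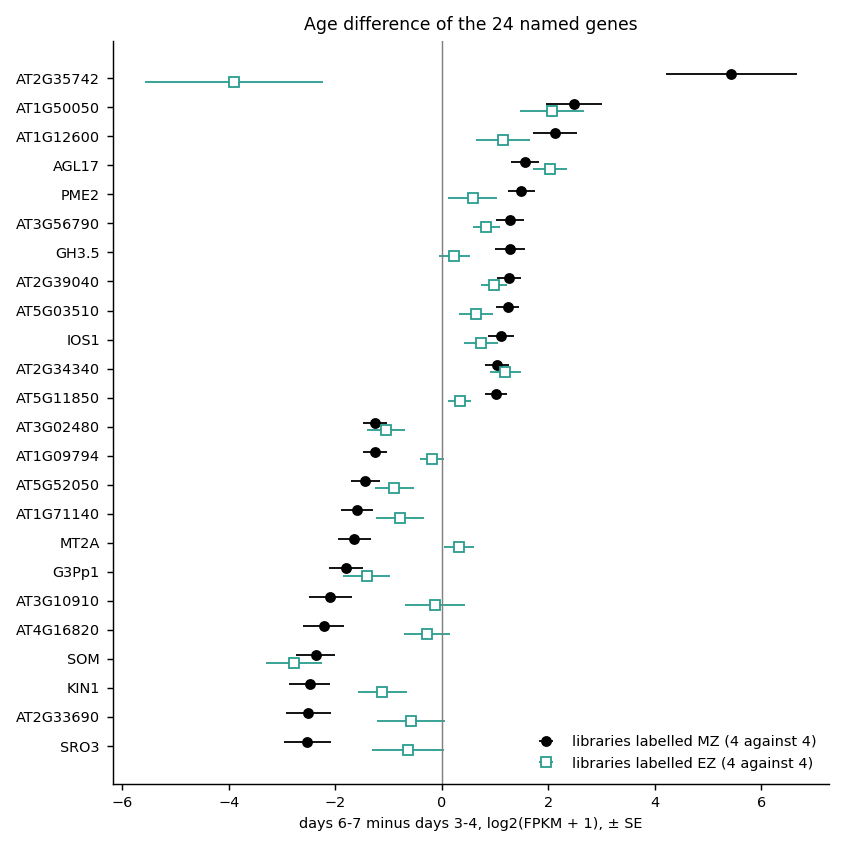
Difference between days 6-7 and days 3-4 in log2(FPKM + 1), with its SE, for the 24 named genes in the libraries labelled MZ (black circles) and EZ (open green squares), 4 libraries against 4 in each. The SE of EZ comes from a fit of both zones together, that of MZ from the MZ libraries alone. The EZ squares lie on the same side of 0 as the MZ circles for 11 of the 12 higher and 11 of the 12 lower genes; AT2G35742 and MT2A are the exceptions.

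The day 5 libraries, which did not enter the comparison either, lay between the sides for most named genes. The mean of the 2 day 5 libraries lay between the means of the sides for 10 of the 12 higher and 12 of the 12 lower genes, against 38.6% of all genes and 82.1% of the 960 genes without overlap. The replicates of day 5 often differed, as in SOM and SRO3 and also in AT1G71140 at 144 and 10.9 FPKM.

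Members of known pathways were then read as lists. No member of any list or family passed the adjusted test, so counts of unadjusted p under 0.05 are set against the 2.71% of genes higher and 6.2% lower. In mixed cells, fewer cells of a type and less RNA per cell cannot be told apart.

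Genes of mitosis and cytokinesis were on balance higher in the older libraries. Of 27 tested, 19 were higher and 8 lower, 5 higher and 0 lower had an unadjusted p under 0.05, and the median difference was 0.28, which is 0.42 above that of all genes and positive under both other scalings. The mean log2 level of the list was 2.39 and 1.70 on day 3, 0.96 and 1.31 on day 4, 2.15 and 2.46 on day 5, 1.76 and 2.59 on day 6, and 2.22 and 1.86 on day 7. The day 4 libraries were thus the lowest, and day 3 replicate 1 was within the older range. CYCB1;2, a B-type cyclin of mitosis, was at 15.6, 6.22, 0.394 and 0.372 FPKM and then at 12.2, 17.37, 37.5 and 13.8 FPKM (2.31 ± 0.75, SE), and CYCB1;1 was at 5.58, 2.61, 0.466 and 0 FPKM and then at 3.61, 9.84, 5.45 and 5.82 FPKM (1.49 ± 0.57, SE). CDC20.1, an activator of the anaphase-promoting complex, was at most 1.67 FPKM on the younger side and at 2.01 to 3.44 FPKM on the older one. In EZ the median of this list was -0.48, the other direction. The DNA replication list did not share the pattern. Of its 21 tested genes 8 were higher and 13 lower, with 0 under an unadjusted p of 0.05, and its median of -0.10 turned positive under both other scalings and was -0.49 without the libraries that stood apart. PCNA1 was at 13.3, 15.4, 5.04 and 6.80 FPKM and then at 6.36, 14.2, 2.07 and 5.00 FPKM. Of 41 tested core histone genes 36 were lower and 5 higher in the older libraries, 7 lower had an unadjusted p under 0.05, and the median was -0.52 (-0.38 relative to all genes). HTA10, an H2A histone, and RAT5, another H2A, differed by -0.79 and -0.84.

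Ribosomal protein genes differed mainly between the libraries of the older side. Of 301 tested, 264 were lower and 37 higher, where 63.5% of all genes were lower. The median difference was -0.32, which is -0.18 relative to all genes. An unadjusted p under 0.05 was reached by 3 lower and 2 higher members, which is 1.66% against 8.91% of all genes. RPL10A, of the large subunit, was at 721, 541, 538 and 628 FPKM on the younger side, at 460 and 1058 FPKM on day 6, and at 156 and 182 FPKM on day 7. Both day 7 libraries were far below every younger one, and day 6 replicate 2 was above them all. RPS13A, of the small subunit, had the same order, at 428, 310, 318 and 352 FPKM, then 235 and 675 FPKM, then 134 and 129 FPKM. The mean of the shorter list of ribosome and nucleolus genes was 6.39 to 7.17 on the younger side, 6.25 and 8.19 on day 6, and 6.05 and 6.05 on day 7. Without day 6, 42 of the 301 genes passed an adjusted p of 0.05, all lower, which is 14% against 1.24% of all genes. Without the 2 libraries that stood apart the median difference was -0.73 and 150 genes had an unadjusted p under 0.05, all lower, but 0 passed.

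Genes of xylem and secondary wall formation went with the libraries that stood apart. Of 13 tested, 12 were lower in the older libraries, with a median of -0.85 and 0 under an unadjusted p of 0.05. The mean of the list was 3.25, 4.31, 4.19 and 3.61 in the younger libraries, 4.14 in day 6 replicate 1 and 5.39 in day 7 replicate 1, but 1.51 in day 6 replicate 2 and 1.21 in day 7 replicate 2. XCP1, a protease of xylem vessels, was at 77.4 and 316 FPKM in the first older pair, against 7.93 and 2.52 FPKM in the libraries that stood apart and 49.3 to 111 FPKM on the younger side. VND7, the master regulator of vessel formation, was at 6.94 and 11.99 FPKM in the first pair and listed at 0 in the libraries that stood apart. Without them the median of the list was 0.97, in the other direction.

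The abscisic acid and cold list moved with the same libraries in part. Of 14 tested genes 12 were lower in the older libraries, 4 lower and 1 higher had an unadjusted p under 0.05, and the median was -0.80 (-0.66 relative to all genes). It was -0.14 without the 2 libraries. LTI30, a dehydrin, was at 1904, 998, 1980 and 1711 FPKM on the younger side and at 1070, 348, 1418 and 557 FPKM on the older one, the lowest values being those of the libraries that stood apart. KIN1 had been chosen for sides that did not overlap, so leaving out those libraries could not turn its difference. Its level in day 6 replicate 1 and day 7 replicate 1, at 7.57 and 4.36 FPKM, was below all younger libraries. DREB2A, a transcription factor gene of drought and heat responses, stood the other way, at 670, 688, 473 and 557 FPKM and then at 871, 1175, 754 and 1168 FPKM, higher in every older library, and NCED3, of abscisic acid synthesis, also averaged higher, by 0.30. The part of the xylem and other marker levels in these differences was not tested.

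**Figure D5:**
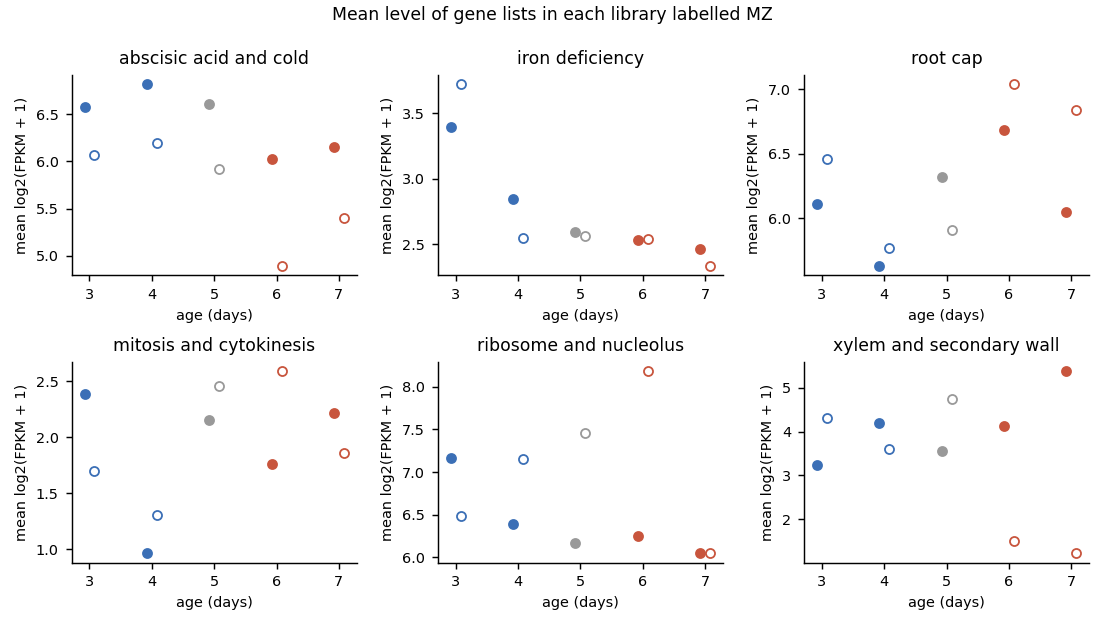
Mean log2(FPKM + 1) of the tested members of 6 gene lists in each library labelled MZ against age in days; filled points are replicate 1, open points replicate 2, blue days 3-4, grey day 5, red days 6-7. The xylem list is at 1.51 and 1.21 in the open points of days 6 and 7, the ribosome list peaks at 8.19 in day 6 replicate 2, and the iron list is highest on day 3.

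Root cap genes were higher in the older libraries for 5 of 6 members, with a median of 0.61 (0.75 relative to all genes) and 2 members under an unadjusted p of 0.05. CEL5, a cellulase of cap cells that separate from the root, was at 191, 214, 200 and 91.01 FPKM and then at 437, 613, 220 and 867 FPKM, with no overlap (1.52 ± 0.42, SE). RCPG, a polygalacturonase of the root cap, was at 212, 543, 286 and 424 FPKM and then at 920, 718, 733 and 463 FPKM, so day 7 replicate 2 lay within the younger range. The cap regulators SMB, BRN1 and BRN2 differed by 0.74, 0.42 and 0.48, and FEZ was below 2 FPKM in every library of both sides. The mean of the list overlapped between the sides, at 5.63 to 6.46 and 6.05 to 7.04, and without the libraries that stood apart its median was 0.14. The summed level of the list was 725 to 1307 FPKM on the younger side and 1246 to 2280 FPKM on the older one, so cap transcripts were present in cells gated against columella. In EZ the list was also higher in the older libraries, with a median of 0.73. RCPG differed by 2.39 ± 0.60 in EZ, against 1.00 ± 0.34 in MZ (SE).

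Iron deficiency genes were lower in the older libraries for 9 of 12 tested, with a median of -0.54 and 3 members under an unadjusted p of 0.05, all lower. The pattern was one of day 3 more than of the sides: the mean of the list was 3.40 and 3.73 on day 3, 2.84 and 2.55 on day 4, and 2.33 to 2.54 on the older side. OPT3, a transporter that loads iron into the phloem, was at 35.0 and 26.5 FPKM on day 3, 15.3 and 5.63 FPKM on day 4, and 3.57 to 8.68 FPKM later. BHLH39, a transcription factor gene induced by iron deficiency, was at 5.94, 16.7, 3.53 and 0 FPKM and then at 0 to 0.613 FPKM. The iron uptake regulator FIT and the ferric reductase FRO2 were not lower, with differences of 0.61 and 0.48, and the transporter gene IRT1 was too low to be tested.

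Hormone pathways differed gene by gene. Of 25 auxin genes 13 were higher and 12 lower, 4 higher and 0 lower had an unadjusted p under 0.05, and the median was 0.03. Besides GH3.5 these included YUC3, an auxin synthesis enzyme, at 38.7, 38.5, 13.4 and 12.4 FPKM and then at 36.5, 45.1, 53.1 and 77.5 FPKM, and the influx carrier AUX1, at 118 to 164 FPKM and then at 169 to 292 FPKM with no overlap. Of 19 cytokinin genes 13 were higher, with a median of 0.22 (-0.05 without the libraries that stood apart), and CKX4, which degrades cytokinin, differed by 1.04 ± 0.39 (SE). The cytokinin response regulators ARR1 and ARR12 differed by 0.07 and 0.05, and SHY2, the auxin response repressor at the transition zone, by 0.28. Of 15 gibberellin and brassinosteroid genes 4 did not overlap, 2 higher and 2 lower, or 26.7% against 4.97% of all genes. GASA4, a gibberellin-regulated peptide gene, was at 1976, 1917, 1532 and 1667 FPKM and then at 1225, 1244, 682 and 793 FPKM, and BAS1, which inactivates brassinosteroids, was at 11.4 to 23.4 FPKM and then at 25.5 to 45.2 FPKM. In EZ the difference of GASA4 was 0.05.

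Stem cell niche regulators were low throughout. Of 16 tested 5 were higher and 11 lower, where 63.5% of all genes were lower. The median was -0.28, which is -0.14 relative to all genes, and it was -0.11 without the libraries that stood apart. PLT2 differed by 0.09 ± 0.44 (SE), PLT1 by -0.52 ± 0.58, SHR by -0.06 ± 0.47 and SCR by -0.30 ± 0.44, each less than its error. WOX5, the marker of the quiescent centre, was at 5.59 and 5.02 FPKM on day 4 and 2.69 FPKM in day 6 replicate 1, and listed at 0 in the other 5 libraries. AGL42, a MADS-box gene of the quiescent centre, was at 0 to 0.297 FPKM on the younger side and at 5.52, 0.433, 8.83 and 2.99 FPKM on the older one (1.92 ± 0.53, SE), and its difference in EZ was 2.24. TPST, the enzyme that sulfates root growth peptides, was at 9.26 to 11.5 FPKM and then at 2.57 to 8.37 FPKM.

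Of 51 peroxidase genes 36 were lower and 15 higher, 7 lower and 1 higher had an unadjusted p under 0.05, and the median was -0.23 (-0.09 relative to all genes, and -0.0062 without the libraries that stood apart). PER40 was at 2.25 to 5.83 FPKM and then at 0 to 1.94 FPKM, and AT2G39040, described above, was the higher one. UPB1, a regulator of peroxidases at the transition from division to elongation, differed by -0.22 ± 0.34 (SE). Of 127 cytochrome P450 genes 15 were higher and 3 lower at an unadjusted p under 0.05. CYP71B7 was at 5.18 to 7.10 FPKM and then at 11.7 to 46.8 FPKM, whereas CYP72A15 was at 7.21 to 20.7 FPKM and then at 1.65 to 4.66 FPKM.

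Among wall genes, EXPA1, an expansin that loosens walls, was at 34.3, 26.3, 26.2 and 12.2 FPKM and then at 9.15, 11.5, 5.48 and 12.2 FPKM, and EXPA14 was at 20.22 to 49.4 FPKM and then at 45.6 to 196 FPKM. Of 36 extensin genes 27 were lower and 9 higher, with 5 lower and 0 higher at an unadjusted p under 0.05. The root hair gene COBL9 differed by 1.13 ± 0.40 (SE) and the hair-cell expansin EXPA7 by -0.62 ± 0.54. CASP5, which builds the Casparian strip of the endodermis, was at 89.3, 28.5, 84.96 and 48.1 FPKM and then at 41.6, 11.7, 29.3 and 4.57 FPKM, lowest in the libraries that stood apart.

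Further members followed in other lists. ELF4, a clock gene, was at 121 to 171 FPKM and then at 31.6 to 112 FPKM (-1.26 ± 0.33, SE), and SPX1, a phosphate sensor gene, at 17.8 to 52.7 FPKM and then at 3.33 to 16 FPKM (-1.68 ± 0.44, SE). MYC2, the main transcription factor of jasmonate signalling, was at 48.5 to 65.7 FPKM and then at 77.1 to 130 FPKM (0.84 ± 0.23, SE), but most of its sequence is shared with another annotated transcript, so its reads are unresolved. KRP5, a cyclin-dependent kinase inhibitor, was at 8.51 to 15.8 FPKM and then at 3.75 to 7.75 FPKM (-1.06 ± 0.32, SE). All 8 reference genes were lower in the older libraries, where 63.5% of all genes were lower. Their median was -0.33, which is -0.19 relative to all genes, and 0 had an unadjusted p under 0.05. The sides did not overlap for TIP41 alone, or 12.5% of the 8 against 4.97% of all genes. ERD5, a proline dehydrogenase in the sugar starvation list, was at 159 to 215 FPKM on the younger side, at 212 and 230 FPKM on day 6, and at 417 and 653 FPKM on day 7.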

How the data were processed

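The authors deposited 1 table of FPKM values per gene and library. Reads were processed with TopHat2 2.0.13 and Cufflinks 2.1.1 against TAIR10, per the submitters' processing notes; strandedness was not given in the sources used here, so sense and antisense reads may be mixed. The reference annotation is TAIR10.1, so it served for names, lengths and sequence copies only and matched 32489 of 33201 genes. Columns were assigned to samples by their labels, with 0 unmapped.

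The 19333 genes that reached 1 FPKM in 2 or more of the 8 libraries were tested on log2(FPKM + 1) with limma 3.58.1 (variance trend, R 4.3.3), 2-sided, 4 libraries against 4, with Benjamini-Hochberg adjustment at 0.05. A log2 difference with this pseudocount of 1 understates changes of low genes. Spread between the 2 ages of a side counts as replicate spread. The change between zones, and the ages within EZ, were tested in a fit of the MZ and EZ libraries together. Genes with at least 50% of their 32-base words in other genes' transcripts or in an organelle genome were treated as unresolved copies. Depth was estimated from the steps of low FPKM values in transcripts of at least 1200 bases. Named genes were the 12 with the smallest p in each direction, with a mean of at least 10 FPKM on the higher side and no overlap, up to 3 members of each list by smallest p, 4 in each direction for the change between zones, and 14 root regulators and markers; the members of families by product words, BRN1, BRN2, FIT, NCED3, VND7 and LTI30 were chosen after their values were seen. The 28 lists held 419 genes, 370 of them tested, and were drawn up by hand; the comparison and the lists were chosen with earlier results of these data known. Each fit was tested on simulated data. Alternatives were the pseudocount, the filter, scaling, library weights, the replicate block and leaving out libraries or ages. Sequences are not used here.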

Additional observations from a re-analysis of the deposited data

Results flagged for a closer look

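Within the 4 libraries of a side, 1 value stood far from the other 3 in 14 cases among the named genes. By chance such a gap appears in about 1 of 20 groups, and both sides of many genes were looked at. The 14 cases can therefore not be told apart from chance gaps and are listed as a description. On the younger side these were AT2G35742 at 81.5 FPKM in day 4 replicate 2 (0 in the others), MC9, a metacaspase of cell death, at 851 FPKM in day 3 replicate 2 (619 to 630 in the others), CEL5 at 91.01 FPKM in day 4 replicate 2 (191 to 214), LOG3 at 0.818 FPKM in day 3 replicate 1 (3.34 to 4.13), ARR10 at 66.5 FPKM in day 3 replicate 1 (42.0 to 44.1) and PLT2 at 1.05 FPKM in day 4 replicate 1 (4.67 to 5.28).

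On the older side they were AT3G02480 at 93.9 FPKM in day 7 replicate 1 (111 to 113), CYCB2;4 at 9.79 FPKM in day 6 replicate 2 (4.74 to 4.92), SEOR1 at 1.54 FPKM in day 6 replicate 1 (0 in the others), ARR10 at 90.4 FPKM in day 7 replicate 2 (58.3 to 61.3), PER40 at 1.94 FPKM in day 7 replicate 1 (0 to 0.149), JAZ5 at 7.09 FPKM in day 7 replicate 2 (12.1 to 13.2), PLT1 at 4.14 FPKM in day 6 replicate 1 (0 to 0.203) and WOX5 at 2.69 FPKM in day 6 replicate 1 (0 in the others). Day 6 replicate 1 was the high library for PLT1, WOX5 and SEOR1, all low genes.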

How the results depend on the processing

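In the comparison of ages 1 gene passed. The count was 0 with a pseudocount of 5, with no filter, without copies and organelle genes, and without the 2 libraries that stood apart. It was 2 with the replicate block, 4 without day 4, 239 without day 6 and 35 with the replicate spread of all 20 libraries. When each library was left out in turn it was 1 to 3. Leaving out copies and the 2 libraries were alternatives chosen after seeing the data. In the test of the difference between zones 0 passed, against 1 with all 20 libraries and 0 to 1 when each library was left out. Replicate numbers were not taken as pairs: the correlation of replicate differences between ages ran from -0.07 to 0.33, over 0.1 in the 3 pairs among days 4, 6 and 7 and below it in the 3 pairs with day 3. The block added KIN1 (adjusted p = 0.0446).

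Of 3223 comparisons of 125 gene values with an alternative, 3134 kept direction and side of the threshold, 30 passed only under the alternative, 4 (AT2G07684) lost the call and 55 turned direction, all in genes that did not pass; the cause was not tested. These log2 differences were, with a pseudocount of 5, SHR 0.0033; with quantile normalisation, SHR 0.14; with median-of-ratios scaling, SHR 0.052; with library weights, SHR 0.11. Without day 3 they were PSBO1 0.04, PLT1 0.076, SHY2 -0.088 and ARR1 -0.022. Without day 4 they were SMB -0.045, ICL 0.0008, PLT2 -0.32, SCR 0.013, WOX5 0.47, ARR12 -0.0039 and UPB1 0.23. Without day 6 they were HSFA2 -0.033, PLT2 -0.27, SHR 0.011 and ARR12 -0.10. Without day 7 they were PCNA1 0.042, RPL10A 0.21, RPS5A 0.085, RPS13A 0.19, DIN10 -0.0059, ACT2 0.039, PLT1 0.030, UPB1 0.18 and EXPA7 0.12. Without the 2 libraries that stood apart they were MYB36 0.24, CESA8 0.19, XCP1 0.93, XCP2 0.93, HSFA2 -0.41, LHCA1 0.042, PSBO1 0.55, PLT1 0.11, PLT2 -0.12, SHR 0.69, SCR 0.43 and ARR12 -0.079. When each library was left out in turn, the values ran over CAB1 -0.013 to 0.54, ARR1 -0.049 to 0.19, ARR12 -0.062 to 0.15, PLT2 -0.29 to 0.34, SHR -0.33 to 0.22, ICL -1.17 to 0.35, UPB1 -0.44 to 0.049, PSBO1 -1.01 to 0.034, SCR -0.57 to 0.021. FPKM values hide the depth of low genes, and with 4 libraries of differing composition a side a p that misses the threshold does not show that a gene did not differ.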

Other observations

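The most abundant gene of all 8 libraries was AT1G52070, of the mannose-binding lectin family, chosen here after its values were seen. It was at 8417, 11554, 9758 and 11734 FPKM in the younger libraries and at 11769, 18799, 13121 and 27945 FPKM in the older ones, so the sides did not overlap, by a narrow margin. It took 1.05% to 1.43% of the column sum on the younger side and 1.47% to 3.67% on the older one. Its difference was 0.72 ± 0.47 on the log2 scale (SE, adjusted p = 0.655 by limma), and the day 5 libraries, at 13337 and 5207 FPKM, lay on either side of the younger range. In the EZ libraries its difference was 0.62 ± 0.54 (SE).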
